A study of Homo sapiens with 6 samples.

Results

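The genes of cholesterol synthesis, uptake and control by SREBP2 were followed through RNA-seq of MDA-MB-231 cells, a human breast cancer line that the study classes as mesenchymal/basal-like. The 34 genes, of 58302 counted, were picked for their known role in the pathway, with earlier results of these data known, and all 34 passed the filter on low counts that left 15075 genes for testing. The cells carried either a control shRNA (3 repeats) or Smyca shRNA #1 (3 repeats), with no other treatment given in the labels. Smyca is a nuclear lncRNA. Only 1 Smyca shRNA was sequenced, so an effect of Smyca and an effect of this shRNA alone cannot be told apart. Values are normalized CPM, which are read counts per 1000000 after scaling with the TMM library size of edgeR, and each log2 fold change is Smyca knockdown over control, so that a positive value is higher in the knockdown.

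Cholesterol is built from acetyl-CoA through mevalonate and farnesyl diphosphate to squalene, which is closed into lanosterol and then trimmed and reduced to cholesterol. When membranes hold little sterol, the escort protein SCAP carries the transcription factor SREBP2 to the Golgi, where proteases release its active part, which turns on the genes of synthesis and uptake. When sterol is plentiful, INSIG proteins keep SCAP in the endoplasmic reticulum, and oxysterols activate LXR, which turns on the genes of cholesterol export.

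The targeted RNA Smyca lies in the locus of the miRNA host gene MIR23AHG, and the counts are of that whole gene, so that Smyca itself was not counted apart. MIR23AHG gave 25.0, 19.5 and 22.0 CPM with control shRNA against 10.5, 6.97 and 5.61 with Smyca shRNA, a log2 fold change of -1.53 (SE 0.26, adjusted p = 0.111 by edgeR). ZSWIM4, on the opposite strand, shares 12.1% of the exonic bases of MIR23AHG and had 280 to 703 counts in the control and 277 to 594 in the knockdown. Total counts per library lay between 14999307 and 16501085. Control repeat 3 stood apart, with a correlation of 0.936 to 0.947 with the other control repeats against 0.987 between those. Knockdown repeat 3 had correlations of 0.962 and 0.969 with the other knockdown repeats, against 0.987 between those. Mitochondrial genes took 4.99% of the counts of control repeat 3, against 1.78% and 1.99% in the other control repeats and 2.35% to 2.72% in the knockdown, and its 10 highest genes took 7.01%, against 5.02% to 6.23% in the other libraries. Their part in the results was not tested. The FPKM column of control repeat 2 did not follow its own counts. Epithelial and gut marker genes went partly against the label of the line. Of 8 mesenchymal genes picked as markers, SPARC reached no more than 11 counts per library. These 8 summed to 614 to 1319 CPM in the control and 645 to 1009 in the knockdown. Of 6 epithelial genes all were present, with KRT8 at 4249 to 4775 CPM in the control and CDH1 at 71.5 to 300 CPM. Of 7 gut genes, CDX1 was at 0, while HNF4A and VIL1 were among those well counted and the list summed to 329 to 573 CPM in the control and 680 to 805 in the knockdown. The luminal breast genes summed to at most 3.86 CPM and the liver genes to at most 0.256 CPM, while 3 of 4 fibroblast and blood genes had at most 4 counts in every library. At an unadjusted p under 0.05, the mesenchymal genes VIM, CD44, CAV1 and ZEB1, the epithelial CLDN4, the gut gene LGALS4 and the fibroblast gene COL1A1 were lower in the knockdown, and the higher genes included KRT8 and VIL1. In bulk RNA, fewer cells of a type and less RNA per cell cannot be told apart. The part of these differences in the cholesterol genes was not tested.

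Most genes that make cholesterol had higher counts after Smyca knockdown. All 20 enzymes of the mevalonate and sterol steps, called synthesis enzymes here and including GGPS1 of the prenylation branch, had a positive log2 fold change, with a median of 0.62, but FDFT1 turned negative with scaling to total counts (-0.041) and with each of 3 libraries left out, and MSMO1 (-0.0048) without control repeat 3. Over the 34 genes the median was 0.39, against -0.04 over all genes tested, and 29 of them had a positive value, against 46.6% of all genes tested. None of the 34 was a DEG by edgeR's quasi-likelihood test with the criteria of the study (control over knockdown of at least 1.5 or no more than 0.66, with adjusted p below 0.05). These criteria called 0.0265% of all genes tested. At an unadjusted p under 0.05, 14 of the 34 were higher in the knockdown, where 8.74% of all genes tested were, and 1 was lower (INSIG2), where 10.4% of all genes tested were. With scaling to total counts these shares of all genes were 5.86% higher and 13% lower. In 13 of the 34 every knockdown repeat lay above every control repeat, against 12.5% of all genes tested, and in 0 every knockdown repeat lay below, against 12.4%. A ratio of at most 0.66 was reached by 13 of the 34 genes, against 5.54% of all genes tested. Without knockdown repeat 1 the 14 genes higher at an unadjusted p under 0.05 became 8, against 7.32% of all genes tested. Without knockdown repeat 3, where 2 knockdown libraries were left, the 13 genes that did not overlap became 21, against 18.8% of all genes tested, and with scaling to total counts they became 8, against 8.52%.

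DESeq2 called 9 of the 34 genes as DEGs, of which 8 were higher in the knockdown (2.55% of the genes with an adjusted p were DEGs in that direction). Without control repeat 3, edgeR called 8 DEGs, 7 of them higher (4.04% of all genes tested). Without the filter on low counts it called 11, of which 10 were higher (1.14%). The 7 genes ACAT2, MVK, SQLE, LSS, DHCR7, TMEM97 and INSIG2 were DEGs in all 3 of these analyses. In the main analysis and in all 13 alternatives, 8 genes were higher at an unadjusted p under 0.05: ACAT2, HMGCS1, MVK, FDPS, SQLE, LSS, DHCR7 and TMEM97. How many of all genes tested were called throughout in the same way was not counted, for the 7 DEGs or for the 8 genes. The settings reuse the same libraries and are not independent repeats. The other 6 of the 14, which were IDI1, TM7SF2, LBR, SREBF2, INSIG1 and ABCA1, missed that level in at least 1 alternative. With whole reads recovered from the FPKM values of control repeat 2 in place of its counts, 18 of the 34 were higher at an unadjusted p under 0.05, where 9.81% of all genes tested were, and 17 lay wholly above the control repeats, where 12.3% of all genes tested did. These reads correlated at 0.995 with the counts of control repeat 3, closer than any pair of repeats of 1 group, so that 2 of the 3 control columns were then nearly alike, and which column is the right library is not known.

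**Figure D1:**
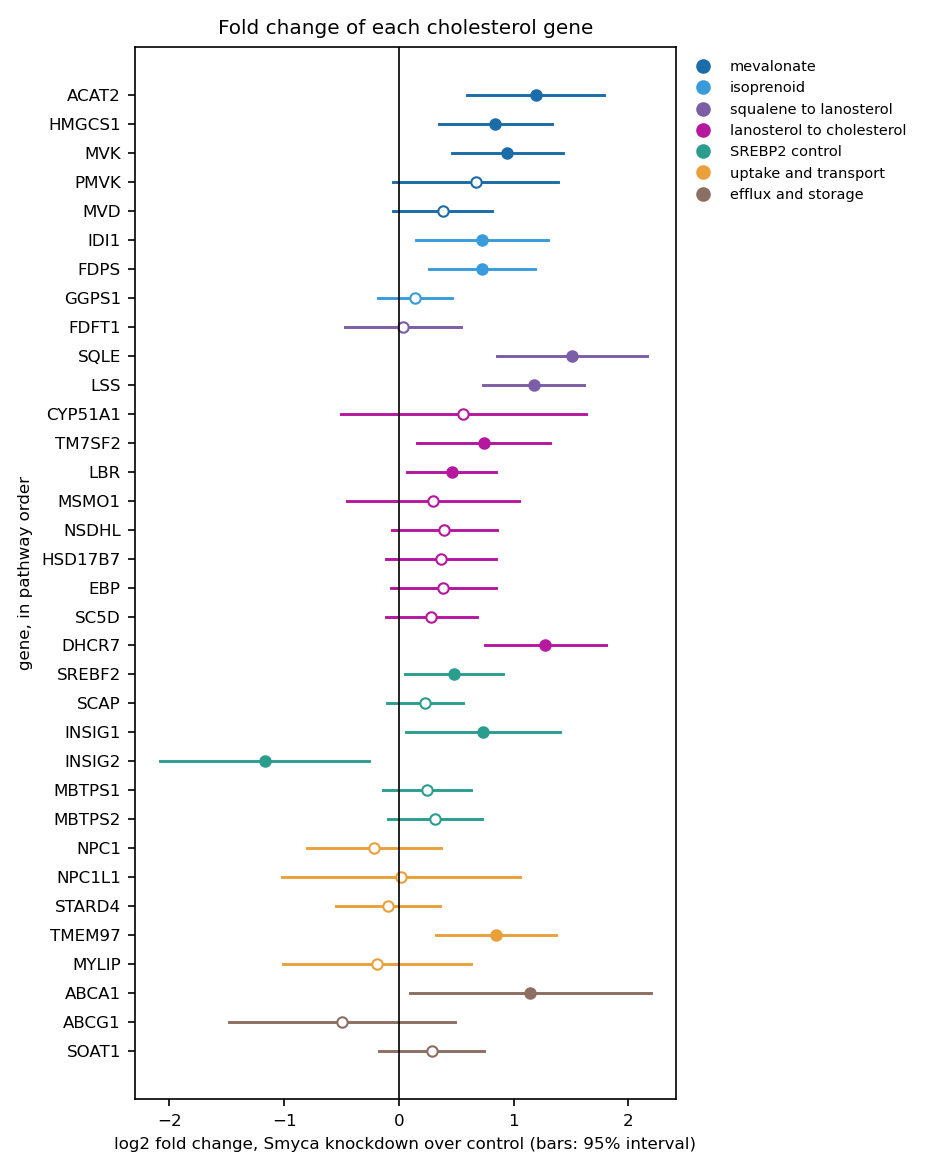
Log2 fold change of each of the 34 genes, Smyca knockdown over control, with its 95% interval from edgeR, in pathway order and coloured by step. Filled points have an unadjusted p under 0.05. All 20 synthesis enzymes, from ACAT2 to DHCR7, lie to the right of 0, with FDFT1 at 0.04 (negative under 4 alternatives, MSMO1 under 1), and INSIG2 is the filled point to the left.

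The enzymes from acetyl-CoA to mevalonate and on to its activated forms were led by ACAT2, the cytosolic thiolase that joins acetyl-CoA units (chr6:159762045-159779112, plus strand, GRCh38). ACAT2 was at 17.5, 32.2 and 30.9 CPM in the control and at 50.3, 77.4 and 56.5 in the knockdown. The groups did not overlap, and control repeat 1 was the lowest library. This gave a log2 fold change of 1.19 (SE 0.26, 95% interval 0.59 to 1.79, adjusted p = 0.111 by edgeR), and the adjusted p ranged from 0.00066 to 0.44 over the alternatives. TCP1, on the opposite strand, shares 17.2% of the exonic bases of ACAT2, and whether the counting used strand is not given in the sources used here. TCP1 had 6188 to 7465 counts in the control and 7041 to 8503 in the knockdown.

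HMGCS1, the cytosolic HMG-CoA synthase (chr5:43287470-43313512, minus strand), was at 44.4, 72.8 and 48.9 CPM in the control and at 101, 113 and 83.1 in the knockdown. Every knockdown repeat was above every control repeat, with control repeat 2 closest to the knockdown. This gave a log2 fold change of 0.84 (SE 0.22, unadjusted p = 0.00404, adjusted p = 0.126 by edgeR). A lncRNA on the opposite strand covers 37.7% of its exonic bases but had at most 2 counts in any library.

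MVK, the kinase that phosphorylates mevalonate (chr12:109573255-109598125, plus strand), was at 22.0, 30.9 and 23.6 CPM in the control and at 41.4, 62.5 and 43.5 in the knockdown. The groups were apart, and knockdown repeat 2 was the highest. The log2 fold change was 0.95 (SE 0.21, unadjusted p = 0.00184, adjusted p = 0.114 by edgeR). MMAB, an adenosyltransferase of vitamin B12 metabolism that starts beside MVK on the opposite strand, was at 22.3, 31.1 and 36.4 CPM in the control and at 53.0, 48.8 and 37.0 in the knockdown. The log2 fold change of MMAB was 0.63 (SE 0.22, unadjusted p = 0.0189 by edgeR). The genes share 225 exonic bases, which are 2.5% of those of MVK. PMVK and MVD, the kinase and the decarboxylase that follow, had overlapping groups, with log2 fold changes of 0.67 (SE 0.32) and 0.38 (SE 0.19). That of MVD was 0.25 without control repeat 3 and 0.24 without knockdown repeat 2. The PMVK values were 33.3 and 32.8 CPM in knockdown repeats 1 and 2, but 15.5 in knockdown repeat 3, within the control range of 13.3 to 22.0.

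Stretches of the RefSeq windows that lie in no exon of GENCODE release 44 are printed for a few genes. That of MVK is shown because it holds 5 CCAAT boxes, the most of those printed. It lies in an intron of the longer GENCODE span of MVK and is from RefSeq (GRCh38.p14, chr12:109573581-109573792, plus strand, 213 to 2 bases before the start site), and the capitals mark CCAAT or its reverse complement ATTGG.
MVK: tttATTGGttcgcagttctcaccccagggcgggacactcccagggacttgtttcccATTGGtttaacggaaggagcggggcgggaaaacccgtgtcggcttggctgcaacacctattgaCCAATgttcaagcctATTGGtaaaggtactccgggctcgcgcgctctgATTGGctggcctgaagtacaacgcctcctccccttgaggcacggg

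At the isoprenoid step, IDI1 and FDPS, which make the building block and then farnesyl diphosphate, had nearly equal fold changes. FDPS was at 36.0, 46.1 and 41.6 CPM in the control and at 75.7, 78.8 and 49.8 in the knockdown. The groups did not overlap, but knockdown repeat 3 lay just above the highest control repeat. The fitted log2 fold change was 0.72 (SE 0.20, unadjusted p = 0.00647, adjusted p = 0.133 by edgeR). IDI1 was at 25.1, 40.7 and 27.7 CPM in the control and at 55.5, 62.5 and 36.4 in the knockdown. Its groups overlapped, since control repeat 2 exceeded knockdown repeat 3, and the log2 fold change was 0.72 (SE 0.25, unadjusted p = 0.0195). GGPS1, which extends farnesyl diphosphate for protein prenylation and is not a sterol enzyme, was at 40.8 to 42.0 CPM in the control and 40.2 to 48.8 in the knockdown. Its log2 fold change was 0.14, with a 95% interval of -0.18 to 0.46, and it was 0.23 without knockdown repeat 2.

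The 3 enzymes from farnesyl diphosphate to lanosterol differed among themselves. SQLE, the squalene epoxidase, was at 30.1, 47.7 and 49.9 CPM in the control and at 137, 150 and 76.9 in the knockdown. All knockdown repeats were above the control, and knockdown repeat 3 was well below the other two. Its log2 fold change of 1.51 (SE 0.29, 95% interval 0.86 to 2.16) was the highest of the 34 genes, with an unadjusted p = 0.000598 and an adjusted p = 0.111 by edgeR.

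LSS, the cyclase that forms lanosterol (chr21:46188141-46228824, minus strand), was at 84.5, 103 and 101 CPM in the control and at 181, 275 and 195 in the knockdown. The control repeats were close together and all knockdown repeats lay above them. This gave a log2 fold change of 1.17 (SE 0.19, 95% interval 0.73 to 1.61, unadjusted p = 0.000223, adjusted p = 0.111 by edgeR), the lowest unadjusted p of the 34 genes. FDFT1, the squalene synthase between FDPS and SQLE, was at 237, 364 and 211 CPM in the control and at 237, 312 and 283 in the knockdown. The groups overlapped fully, and control repeat 2 was the highest of all libraries. Its log2 fold change was 0.04 (SE 0.22), with a 95% interval of -0.47 to 0.54, and its sign changed with scaling to total counts (-0.041), without control repeat 1 (-0.057), without control repeat 3 (-0.11) and without knockdown repeat 2 (-0.054). With the reads recovered from the FPKM values of control repeat 2 in place of its counts, the log2 fold change of FDFT1 was 0.35 (unadjusted p = 0.042).

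The bases before the LSS start site are shown for the gene with the lowest unadjusted p. The stretch is from RefSeq (GRCh38.p14, chr21:46228825-46229024, minus strand, read in the direction of transcription, from 250 to 51 bases before the start site), with the single CCAAT box, as ATTGG, in capitals.
LSS: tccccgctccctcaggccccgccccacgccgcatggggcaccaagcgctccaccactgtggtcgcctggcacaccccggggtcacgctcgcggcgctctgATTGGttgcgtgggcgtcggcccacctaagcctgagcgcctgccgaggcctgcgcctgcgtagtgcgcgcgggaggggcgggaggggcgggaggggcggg

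**Figure D2:**
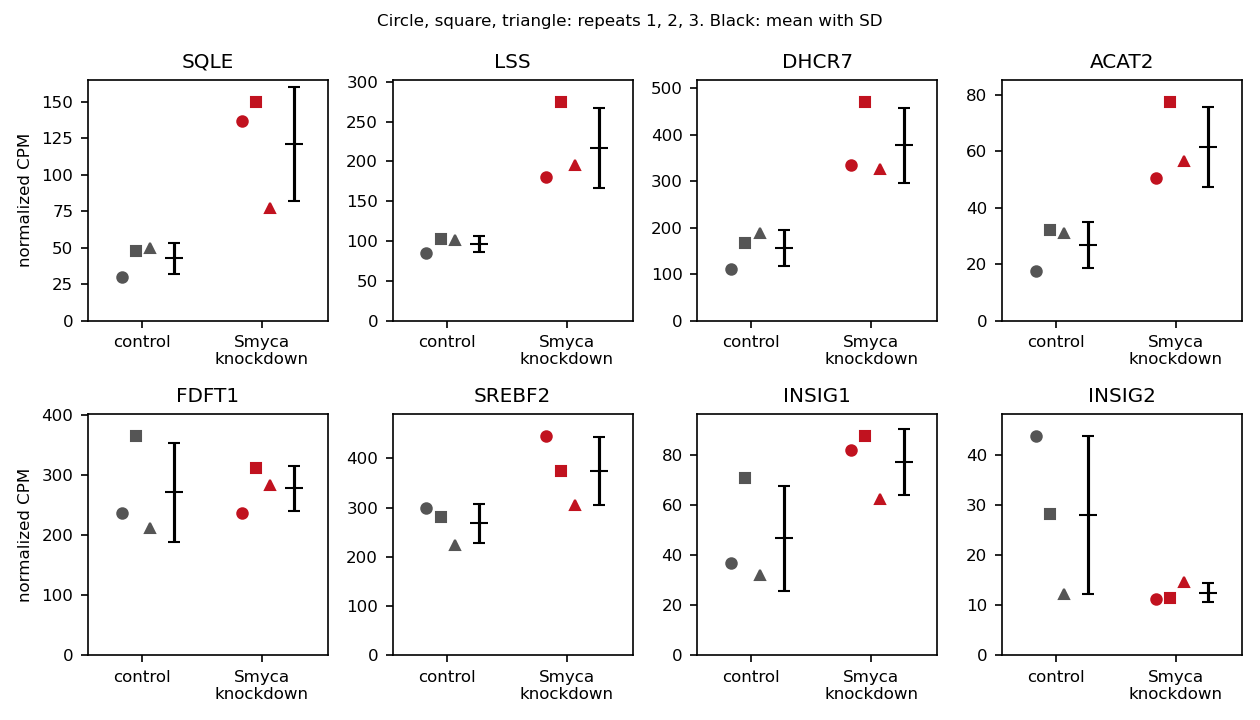
Normalized CPM of 8 genes in each library, by group, with the mean and SD (n = 3) in black beside the points, and each axis starting at 0. SQLE, LSS, DHCR7, ACAT2 and SREBF2 show all knockdown repeats above the control, FDFT1 and INSIG1 overlap, and control repeat 3 of INSIG2, at 12.2 CPM, lies among the knockdown repeats.

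From lanosterol to cholesterol, all 9 genes had positive log2 fold changes, from 0.28 to 1.28, where 46.6% of all genes tested were positive. MSMO1 turned negative without control repeat 3. At an unadjusted p under 0.05 by edgeR, 3 of the 9 were higher, where 8.74% of all genes tested were. Only DHCR7 of the 9 still passed without control repeat 1 (5.02% of all genes tested) or without knockdown repeat 1 (7.32%). DHCR7, the reductase that ends one branch of the pathway (chr11:71428193-71452868, minus strand), was at 112, 167 and 188 CPM in the control and at 336, 471 and 326 in the knockdown. The lowest knockdown repeat was far above the highest control repeat. The log2 fold change was 1.28 (SE 0.23, 95% interval 0.75 to 1.81, unadjusted p = 0.000453, adjusted p = 0.111 by edgeR). On the TPM scale, which divides by gene length, the level of DHCR7 was 199 ± 52.6 with control shRNA and 463 ± 90.8 with Smyca shRNA (SD, n = 3 each). That of FDFT1 was 259 ± 86.2 and 253 ± 28.3, so that DHCR7 was below FDFT1 in mean level in the control and above it in the knockdown. In control repeat 3, DHCR7 was already above FDFT1 per length, with 2939 counts over 1053 bases against 3294 over 1412. The reads recovered from the FPKM values of control repeat 2, 3335 and 3602, gave the same order.

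TM7SF2 and LBR encode sterol reductases of the same step, and LBR is also the lamin B receptor of the inner nuclear membrane. TM7SF2 was at 16.8, 21.2 and 34.1 CPM in the control and at 43.5, 41.4 and 35.5 in the knockdown. LBR was at 97.4, 126 and 108 CPM in the control and at 175, 152 and 129 in the knockdown. In both genes the groups did not overlap, but the nearest repeats of the groups almost met. The log2 fold changes were 0.74 for TM7SF2 (SE 0.25, unadjusted p = 0.0182) and 0.46 for LBR (SE 0.17, unadjusted p = 0.0251) by edgeR. Without control repeat 3 the log2 fold change of TM7SF2 was 1.08, with an adjusted p = 0.0125, where the adjusted p ranged from 0.0125 to 0.463 over the alternatives.

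The other 6 genes had overlapping groups and intervals that included 0. NSDHL, EBP and HSD17B7, a dehydrogenase, an isomerase and a keto reductase, had log2 fold changes of 0.39 (SE 0.20), 0.39 (SE 0.20) and 0.37 (SE 0.21). Without knockdown repeat 2 these were 0.18, 0.25 and 0.24, and that of EBP was 0.23 without control repeat 1. SC5D, a desaturase, was at 27.4, 34 and 31.3 CPM in the control and 38.3, 43.4 and 31.2 in the knockdown, a log2 fold change of 0.28 (SE 0.17), or 0.17 without knockdown repeat 2. CYP51A1, the lanosterol demethylase, had at most 3.30 CPM in any library and a log2 fold change of 0.56 (SE 0.47). With 1 library left out that of CYP51A1 was 0.86 (without control repeat 1), 0.27 (control repeat 3), 0.87 (knockdown repeat 1) and 0.30 (knockdown repeat 3). In GENCODE release 44 other genes on the same strand cover up to 68.2% of the exonic bases of CYP51A1, 36.4% of those of EBP and 37.3% of those of GGPS1, but none of these is among the genes counted.

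MSMO1, a methylsterol oxidase, was at 33.3, 43.8 and 16.3 CPM in the control and at 40.4, 44.9 and 29.6 in the knockdown. Control repeat 3 was the lowest and the groups otherwise ran together. This gave a log2 fold change of 0.30 (SE 0.33), and it was -0.0048 without control repeat 3. The window before its start site is printed beside those of genes that were higher in the knockdown, since it holds 4 CCAAT boxes although the groups of MSMO1 overlapped. It is from RefSeq (GRCh38.p14, chr4:165327419-165327666, plus strand, from 250 to 3 bases before the start site).
MSMO1: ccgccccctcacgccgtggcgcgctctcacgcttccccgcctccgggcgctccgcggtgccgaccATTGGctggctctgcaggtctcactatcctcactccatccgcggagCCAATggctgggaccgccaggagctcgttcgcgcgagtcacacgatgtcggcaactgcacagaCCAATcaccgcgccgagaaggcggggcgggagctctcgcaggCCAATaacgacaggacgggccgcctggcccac

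Within libraries, ratios of counts per kilobase were compared for pairs of genes chosen after their values were seen, as a description. The log2 ratio of SQLE to FDFT1 was -2.82, -2.77 and -1.92 in the control and -0.63, -0.90 and -1.72 in the knockdown. Control repeat 3 and knockdown repeat 3 were close, and the groups did not overlap. For LSS to FDFT1 it was -2.10, -2.44 and -1.68 in the control and -1.01, -0.80 and -1.16 in the knockdown. For DHCR7 to SC5D it was 2.5, 2.77 and 3.06 in the control and 3.60, 3.91 and 3.86 in the knockdown. The groups overlapped for TM7SF2 to LBR, at -1.93, -1.96 and -1.06 in the control and -1.41, -1.27 and -1.25 in the knockdown. They also overlapped for LSS to MSMO1, at 0.62, 0.50 and 1.90 in the control and 1.43, 1.89 and 1.99 in the knockdown. Of the 6 pairs compared, INSIG1 to INSIG2 included, 4 did not overlap between the groups and 2 did. Since the pairs were chosen from these values, this count is no result about gene pairs, and no share over other pairs was taken. These ratios do not depend on the scaling between libraries.

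**Figure D3:**
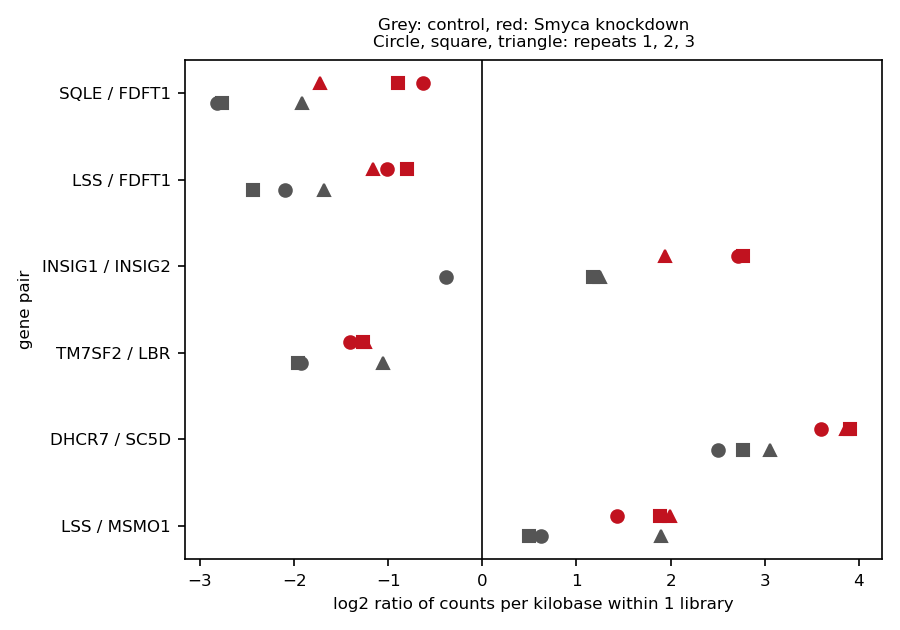
Log2 ratio of counts per kilobase within each library for the 6 gene pairs, which were chosen after their values were seen. Grey is control and red is Smyca knockdown. In 4 pairs the 3 knockdown libraries lie to the right of the 3 control libraries, closest for SQLE over FDFT1 (-1.92 against -1.72), and for TM7SF2 over LBR and LSS over MSMO1 the groups overlap.

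Among the genes that control SREBP2, INSIG1 and INSIG2 had fold changes of opposite sign. Both encode endoplasmic reticulum proteins that hold back SCAP, and INSIG1 is itself a target of SREBP2. INSIG1 was at 36.9, 70.6 and 32.1 CPM in the control and at 81.9, 87.3 and 62.3 in the knockdown. Control repeat 2 exceeded knockdown repeat 3, so that the groups overlapped. This gave a log2 fold change of 0.73 (SE 0.29, unadjusted p = 0.0362, adjusted p = 0.228 by edgeR), with 1.16 without control repeat 2 and 0.52 without control repeat 3. The unadjusted p by edgeR was above 0.05 with scaling to total counts. It was also above 0.05 without control repeat 1, control repeat 3, knockdown repeat 1 or knockdown repeat 2.

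INSIG2 (chr2:118088452-118110997, plus strand) was at 43.8, 28.2 and 12.2 CPM in the control and at 11.2, 11.5 and 14.7 in the knockdown. The knockdown repeats were close together, whereas the control repeats spread widely and control repeat 3 lay within the knockdown range. The log2 fold change was -1.17 (SE 0.40, 95% interval -2.08 to -0.26, unadjusted p = 0.0177, adjusted p = 0.176 by edgeR). It was -1.52 without control repeat 3 (adjusted p = 0.00834) and -0.70 without control repeat 1, and the adjusted p ranged from 0.00834 to 0.493 over the alternatives. With 1 library left out, the unadjusted p was above 0.05 without control repeat 1, without knockdown repeat 1 and without knockdown repeat 2. With the reads recovered from the FPKM values of control repeat 2, it was -0.92 (unadjusted p = 0.0784). The log2 ratio of INSIG1 to INSIG2 per kilobase was -0.39, 1.18 and 1.25 in the control and 2.72, 2.77 and 1.94 in the knockdown.

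The windows of both genes are shown since their fold changes were opposite. They are from RefSeq (GRCh38.p14, plus strand), at chr7:155297628-155297775 for INSIG1, from 250 to 103 bases before the start site, and at chr2:118088221-118088451 for INSIG2, from 250 to 20 bases before it. Capitals mark the single ATTGG of INSIG1, and INSIG2 holds no CCAAT box in this stretch.
INSIG1: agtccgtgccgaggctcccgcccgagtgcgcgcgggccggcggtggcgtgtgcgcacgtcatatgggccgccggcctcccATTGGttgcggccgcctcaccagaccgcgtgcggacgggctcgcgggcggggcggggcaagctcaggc
INSIG2: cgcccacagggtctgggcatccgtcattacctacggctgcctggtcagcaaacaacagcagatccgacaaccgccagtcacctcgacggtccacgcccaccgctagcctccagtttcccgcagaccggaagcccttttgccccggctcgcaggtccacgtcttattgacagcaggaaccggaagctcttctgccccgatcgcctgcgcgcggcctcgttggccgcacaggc

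SREBF2, the gene of SREBP2 (chr22:41833105-41907306, plus strand), was at 300, 280 and 224 CPM in the control and at 445, 374 and 305 in the knockdown. The groups were apart, but control repeat 1 and knockdown repeat 3 nearly met. The fitted log2 fold change was 0.48 (SE 0.19, unadjusted p = 0.0306, adjusted p = 0.212 by edgeR). SREBF2-AS1, on the opposite strand, shares 9.1% of the exonic bases of SREBF2 and had 95 to 146 counts in the control and 64 to 81 in the knockdown. SCAP was at 122 to 146 CPM in the control and 139 to 163 in the knockdown, a log2 fold change of 0.23 (SE 0.15). MBTPS1 and MBTPS2, the Golgi proteases, had log2 fold changes of 0.24 (SE 0.17) and 0.32 (SE 0.18). That of MBTPS1 was 0.14 without control repeat 2, 0.38 without control repeat 3 and 0.16 without knockdown repeat 3, and that of MBTPS2 was 0.18 without control repeat 3.

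The core of the sterol regulatory element (SRE), to which SREBP proteins bind, was searched for as TCACNCCAC on both strands in the RefSeq windows from 250 bases before to 50 bases after the start sites. Of the 34 genes, 30 had a window, while ACAT2, FDFT1, SQLE and ABCG1 had none and were not searched. Of those with a window 1, SREBF2, held a match, where 1.37% of the genes tested with a window did. It is shown with 10 bases on each side (GRCh38.p14, chr22:41832962-41832990, plus strand), the core in capitals, and begins 133 bases before the start site.
SREBF2: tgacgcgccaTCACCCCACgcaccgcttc

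The shorter form CACCCCAC, which overlaps that core, was in 2 of the 30 windows (SREBF2 and ABCA1), against 3.8% of the genes tested. The CCAAT box, bound by NF-Y, which acts together with SREBP proteins at many promoters, was in 21 of the 30 (70.0%), against 42.3% of the genes tested. It was in 10 of the 12 genes with a window that were higher at an unadjusted p under 0.05 and in 11 of the other 18. The GC box GGGCGG was in 25 of the 30 (83.3%), against 76.4% of the genes tested, and the E box CACGTG in 5 (16.7%), against 12.5%. A match is a description of letters and no sign of binding, and the lack of a match is no sign that binding is absent.

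Uptake and transport genes differed in sign. TMEM97, a sterol-regulated protein of the endoplasmic reticulum (chr17:28319200-28328685, plus strand), was at 16.7, 15.7 and 25.0 CPM in the control and at 27.5, 36.4 and 39.3 in the knockdown. The groups did not overlap, and here knockdown repeat 3 was the highest. This gave a log2 fold change of 0.84 (SE 0.23, unadjusted p = 0.00556, adjusted p = 0.13 by edgeR). IFT20 on the opposite strand shares 12.3% of its exonic bases and had 180 to 260 counts in the control and 159 to 183 in the knockdown. The window before TMEM97 is shown because it holds 3 CCAAT boxes, in capitals, all on the strand of the gene (RefSeq, GRCh38.p14, chr17:28318950-28319199, plus strand, the 250 bases before the start site).
TMEM97: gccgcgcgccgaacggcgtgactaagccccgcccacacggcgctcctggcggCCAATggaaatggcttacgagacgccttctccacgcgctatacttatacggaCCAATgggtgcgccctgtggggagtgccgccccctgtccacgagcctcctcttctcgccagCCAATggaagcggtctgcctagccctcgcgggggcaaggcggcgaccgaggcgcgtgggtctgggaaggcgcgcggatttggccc

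NPC1, the lysosomal cholesterol exporter, was at 93.8, 66.0 and 43.5 CPM in the control and 58.7, 52.3 and 63.9 in the knockdown. The control repeats spanned the whole knockdown range, and the log2 fold change was -0.22 (SE 0.26). STARD4, a cytosolic sterol carrier, had a log2 fold change of -0.10 (SE 0.20), and MYLIP, an E3 ubiquitin ligase induced by LXR, one of -0.19 (SE 0.36). NPC1L1, the intestinal absorption protein, had at most 3.51 CPM and a log2 fold change of 0.02 (SE 0.45). The signs of these 4 genes changed under at least 1 alternative.

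The export genes that LXR controls differed in sign and were low. ABCA1 was at 0.679, 0.369 and 0.448 CPM in the control and at 1.52, 0.76 and 1.06 in the knockdown. The groups did not overlap, but control repeat 1, the highest of the control, had 11 counts. Its log2 fold change was 1.15 (SE 0.46, unadjusted p = 0.036, adjusted p = 0.228 by edgeR). ABCG1 was at 15.1, 8.61 and 5.51 CPM in the control and 10.5, 4.75 and 5.41 in the knockdown, overlapping groups with a log2 fold change of -0.49 (SE 0.43). It was -0.037 without control repeat 1, -0.77 without control repeat 3, -0.93 without knockdown repeat 1 and -0.28 without knockdown repeat 2. SOAT1, which esterifies cholesterol for storage, had a log2 fold change of 0.29 (SE 0.20), which was 0.18 without control repeat 1 and 0.11 without knockdown repeat 3.

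The repeats of a group did not carry the pattern equally. Averaged over the 20 synthesis enzymes, log2(CPM + 1) relative to each gene's mean was -0.50, -0.13 and -0.32 in control repeats 1, 2 and 3 and 0.30, 0.55 and 0.10 in knockdown repeats 1, 2 and 3. Knockdown repeat 2 was the highest of its group in 15 of the 20 enzymes and knockdown repeat 3 the lowest in 14. Control repeat 2 was the highest of its group in 13 and control repeat 1 the lowest in 14. For the 6 genes of SREBP2 control the same averages were 0.03, 0.04 and -0.35 in the control and 0.10, 0.08 and 0.10 in the knockdown.

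**Figure D4:**
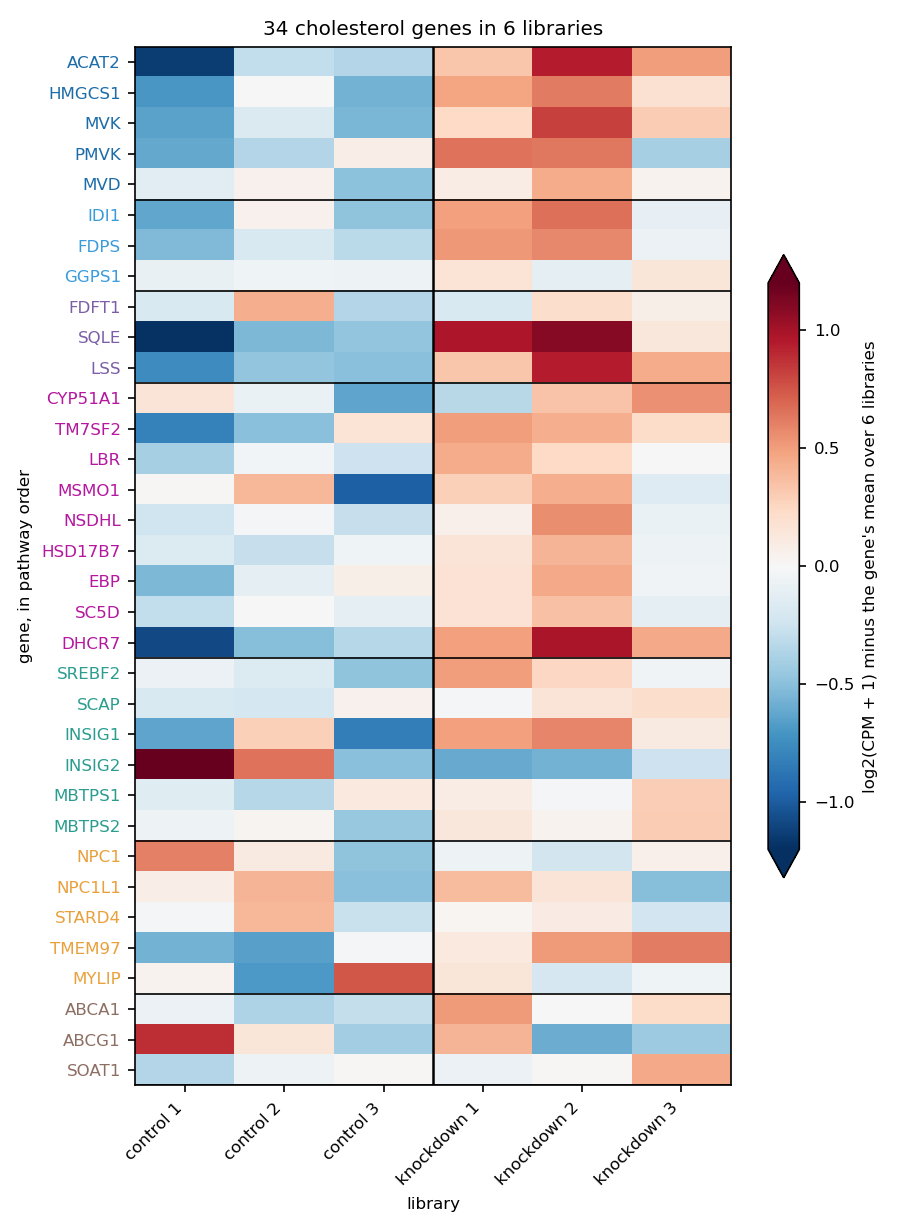
Log2(CPM + 1) of the 34 genes in each library minus the gene's mean over the 6 libraries, in pathway order, with lines between steps and between the groups. The synthesis enzymes at the top are mostly blue in the control and red in the knockdown, palest in control repeat 2 and knockdown repeat 3, and INSIG2 runs the other way except in control repeat 3.

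Of 43 other genes of the pathway, listed by role, 38 were tested, with a median log2 fold change of 0.15. At an unadjusted p under 0.05, 9 were higher and 2 lower, where 8.74% and 10.4% of all genes tested were, and 0 were DEGs by edgeR or by DESeq2. Without control repeat 3 the DEGs by edgeR included ICMT. The 9 became 3 without control repeat 1 (against 5.02% of all genes tested) or with scaling to total counts (5.86%), 5 without knockdown repeat 1 (7.32%) and 1 without knockdown repeat 2 (4.75%). The 2 became 0 without control repeat 1 (6.17%), control repeat 2 (7.89%) or knockdown repeat 2 (6.02%), and 1 without knockdown repeat 1 (8.53%). ICMT, which methylates prenylated proteins, was at 61.9, 68.4 and 79.4 CPM in the control and at 95.5, 104 and 113 in the knockdown. The groups were apart, and the log2 fold change of ICMT was 0.58 (SE 0.15, unadjusted p = 0.00456, adjusted p = 0.126 by edgeR). DHDDS, of dolichol synthesis, had a log2 fold change of 0.48 (SE 0.16), and ERG28, a scaffold of the sterol enzymes, one of 0.47 (SE 0.16).

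Of 10 genes of SREBP processing and sterol-regulated degradation, 3 were higher at an unadjusted p under 0.05, where 8.74% of all genes tested were, and 0 with scaling to total counts (5.86%). They were SPRING1, needed for SREBP activation, at 0.40 (SE 0.16), RNF145, an E3 ligase, at 0.44 (SE 0.18), and ERLIN1 at 0.47 (SE 0.19) on the log2 scale. Among 10 genes of sterol transport and storage, 3 were higher at that level, where 8.74% of all genes tested were. They were LIPA, the lysosomal acid lipase, at 0.34 (SE 0.14), SCARB1, a receptor for HDL, at 0.52 (SE 0.19), and GRAMD1B, a sterol transporter at membrane contacts, at 0.63 (SE 0.27). In the same list GRAMD1A, the paralog of GRAMD1B, was lower, at -0.43 (SE 0.18), as was STARD3, a sterol tether of late endosomes, at -0.35 (SE 0.14). Of all genes tested, 10.4% were lower at that level. In GRAMD1A the control repeats were at 231, 176 and 159 CPM and the knockdown repeats at 155, 128 and 135. With scaling to total counts the 3 higher genes of this list missed that level and the 2 lower ones kept it. Of all genes tested, 5.86% were then higher and 13% lower. None of the 3 tested genes of LXR and oxysterols passed in either direction.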

How the data were processed

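RNA was sequenced from 6 libraries, 3 per group, grouped by the labels. The authors depleted rRNA, made stranded libraries, aligned the paired reads to GRCh38 (TopHat v2.0.12) and obtained counts with HTSeq. The annotation release and the strand setting of the counting are not given in the sources used here. The authors deposited raw read counts per gene and, beside them, FPKM. The FPKM followed the counts of the same library within a tolerance of 0.01 in 5 libraries, but for 1.6% of genes in control repeat 2, where its FPKM reads correlated at 0.995 with the counts of control repeat 3 and at 0.948 with its own. FPKM was used only to take gene lengths, on which TPM is based, and to recover whole reads of that library for 1 alternative, chosen after seeing the data. No column belonged to another series (0 columns).

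Differences were fitted with edgeR 4.0.16 under R 4.3.3 (TMM, filterByExpr, quasi-likelihood test, Benjamini-Hochberg adjustment over all genes tested), without covariates. The authors used DESeq, and DESeq2 1.42.0 was an alternative here. The other alternatives were RLE size factors, total counts, only genes without any count removed, a minimum of 10 counts per library, the repeat number as a block and each library left out. Symbols, positions and overlaps come from GENCODE release 44, promoter windows from RefSeq. The code was tested on simulated counts. The genes and lists were chosen with earlier results of these data known. Named genes were all 34 members, other pathway genes with an unadjusted p under 0.05, Smyca, and genes overlapping a member. Some genes of these lists are counted in them but not reported here by name.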

Additional observations from a re-analysis of the deposited data

How the results depend on the processing

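Of the 34 genes, 28 kept their direction in every one of the 13 alternatives that tested them, and ABCA1 was not tested with the minimum of 10 counts. The number of DEGs depended most on the setting. Among all genes it was 4 in the main analysis, 8 with total counts, 916 without the low-count filter, 850 with DESeq2, 10 with reads recovered from the FPKM of control repeat 2, 0 with the repeat number as a block, and 0 to 1628 with 1 library left out. Among the 34 genes it was 11 without the filter, 9 with DESeq2 and 0 to 8 with 1 library left out, where the 8 came without control repeat 3. The causes were not tested.

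With 1 library left out, 8 to 17 of the 34 genes were higher and 0 to 2 lower at an unadjusted p under 0.05, 13 to 21 lay above the control without overlap, and 1 to 9 of the other pathway genes were higher and 0 to 3 lower. Of all genes tested, 4.75% to 13.9% were then higher, 6.02% to 15.7% lower and 14.3% to 23.4% above the control without overlap. The lower gene, INSIG2, was lost (0 genes) with the block and with the FPKM reads, where the median log2 fold change was 0.54. With total counts 8 genes lay above the control without overlap (8.52% of all genes tested) and 3 other pathway genes were higher (5.86%). Without the filter and with DESeq2, 1 other pathway gene was lower in each, where 7.55% and 10.1% of all genes tested were.

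Repeats with the same number shared only a number: their deviations from the group means correlated at 0.06, 0.08 and -0.01. With the repeat number as a block, 5 other pathway genes were higher and 1 lower, and 15 of the 34 genes were higher. Of all genes tested, 7.81% were then higher and 9.23% lower.

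The sign changed for 6 genes. With total counts it was -0.041 for FDFT1 and -0.045 for NPC1L1, and with the FPKM reads 0.20 for STARD4. With 1 library left out the log2 fold changes spanned -0.11 to 0.31 for FDFT1, -0.0048 to 0.63 for MSMO1, -0.45 to 0.086 for NPC1, -0.26 to 0.34 for NPC1L1, -0.24 to 0.12 for STARD4 and -0.49 to 0.28 for MYLIP. Depth limits CYP51A1, NPC1L1 and ABCA1, which have few counts.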

Other observations

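The reads recovered from the FPKM column of control repeat 2 differed from its counts in several of the 34 genes. HMGCS1 had 1183 counts and 733 recovered reads, FDFT1 5916 and 3602, INSIG1 1148 and 556, MSMO1 712 and 274, and INSIG2 459 and 268. TMEM97 had 255 counts and 439 recovered reads, and MYLIP 111 and 305. ACAT2 was close, with 524 and 547, as was LSS, with 1673 and 1782. These reads correlated at 0.995 with the counts of control repeat 3, so that replacing the counts sets 2 nearly alike columns in the control. With these reads in place of the counts, 18 of the 34 genes were higher at an unadjusted p under 0.05, where 9.81% of all genes tested were, and 17 lay above the control without overlap, against 12.3%. The log2 fold change of INSIG1 was then 1.21, that of HMGCS1 1.14 and that of MSMO1 0.83.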
